A study of Mus with 6 samples.

Results

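The EGF receptor and its ligands were followed in LECs, the epithelial cells of the lens, at 0 h and 6 h post cataract surgery (PCS), along with the inhibitor that the active receptor induces. The genes are Egfr, which encodes the receptor, Hbegf, Areg, Ereg and Tgfa, which encode ligands of it, and Errfi1, whose protein binds and blocks the active receptor. These 6 genes, of the 55421 Ensembl genes of the count files, are a list of names with no threshold on a value, though earlier results of these data were known when it was drawn up, and all 6 have a row in each file. The RNAseq came from wild type C57BL/6 mice, with an age of 2 months in the labels and an older age in the study's methods. The fiber cell mass was removed from the lens, and the capsule with its attached LECs was taken at once (0 h PCS, 3 libraries) or 6 h later (6 h PCS, 3 libraries), each library being a pool of 5 capsules. By the labels the eyes of a mouse were operated 6 h apart and both capsules were taken at sacrifice, so pools of different time points may share mice, while the methods describe independent animals. The pools hold all cells left on the capsule, and both groups had undergone the surgery.

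The EGF receptor is a receptor tyrosine kinase. Its ligands are made as membrane proteins that metalloproteases of the ADAM family release from the cell surface, after which they bind the receptor on the same or on neighbouring cells. The bound receptor forms dimers, phosphorylates itself and signals through Ras to ERK and through other kinases. Transcription that follows ERK activity produces new ligand as well as inhibitors, and Errfi1 is among the inhibitors. In epithelia the pathway is known for its part in migration, proliferation and wound closure, and HB-EGF, the product of Hbegf, is known as a ligand that injured epithelia release.

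Total gene counts ranged from 18039974 to 24701039 read pairs, the lowest in 6 h replicate 1, in which gene counts were 33.6% of the read pairs against 39.5% to 41.2% in the other libraries. Means are given ± SD of the 3 libraries of a time point (n = 3), SE stands for the standard error on the log2 scale, and levels are in CPM, the counts of a gene per 1000000 gene counts, after scaling with the TMM factors of edgeR, which lay between 0.827 (6 h replicate 1) and 1.146. After genes with few counts were set aside, 16810 were tested with edgeR's quasi-likelihood test, and a DEG had to reach a Benjamini-Hochberg adjusted p (edgeR adjusted p) no higher than 0.05 together with a change of more than 2-fold. There were 900 DEGs. They comprised 762 upregulated and 138 downregulated genes with TMM factors, and 572 upregulated and 627 downregulated genes when libraries were scaled on their size alone, which moved the median log2 fold change of all tested genes to −0.32. Of the lens epithelial markers, 5 of 8 could be matched to a row, and their summed level was 1086 to 1283 CPM at 0 h PCS and 1175 to 1384 CPM at 6 h PCS. Its members moved apart, since Epha2 was an upregulated DEG (1.21 as log2 fold change), Sox2 fell by 0.70 on the log2 scale (edgeR adjusted p 0.0151) without reaching the fold limit, and Pax6 was at −0.51, Foxe3 at 0.28 and Gja1 at 0.41, none of these 3 past the FDR limit. No lens fiber marker of a list of 8 could be matched, so fiber cells were not analysed here. In pooled capsules, fewer cells of a type and less RNA per cell cannot be told apart.

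Hbegf and Errfi1 were upregulated at 6 h PCS, each more than 4-fold, whereas Egfr and Tgfa passed no limit for a change and had lower means at 6 h PCS. Ereg and Areg were close to the limit of detection at 0 h PCS and had higher counts at 6 h PCS in 2 of the 3 libraries. The low-count filter left 5 of the 6 genes, of which 2 were DEGs, both upregulated. Over all tested genes, 5.35% were DEGs and 4.53% were upregulated DEGs, and of the tested genes with a symbol at hand 13.7% were DEGs. The 6 genes were chosen with earlier results of these data known, so these shares are no test of them. In 3 of the 5 genes, Hbegf, Errfi1 and Tgfa, the libraries of the time points did not overlap, against 30.6% of all tested genes. The plot of levels by library shows all 6 genes.

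**Figure D1:**
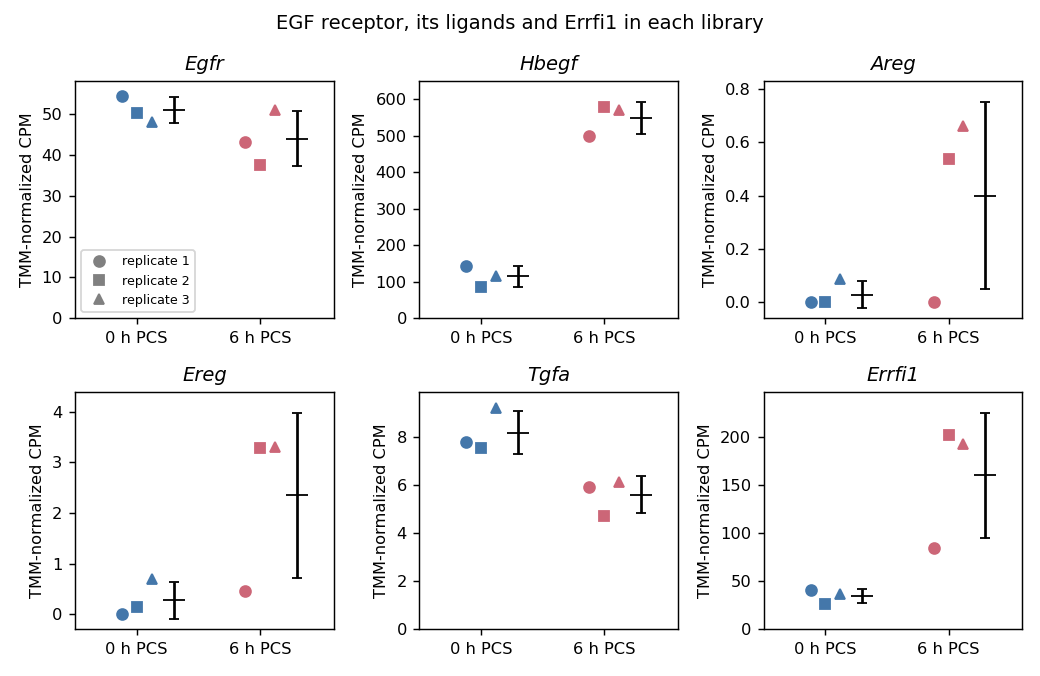
TMM-normalized CPM (vertical axis, linear) of Egfr, Hbegf, Areg, Ereg, Tgfa and Errfi1 in the 3 libraries at 0 h PCS (blue) and the 3 at 6 h PCS (red), with the mean and SD of each group in black. The 6 h libraries of Hbegf lie between 500.0 and 580.2 CPM, all above the 0 h libraries, while 6 h replicate 1 (circle) is the lowest 6 h library of Hbegf, Areg, Ereg and Errfi1.

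The receptor gene Egfr (ENSMUSG00000020122) lies on chromosome 11 of GRCm38.p6 from 16752203 to 16913907. At 0 h PCS its level was 54.5, 50.4 and 48.2 CPM in replicates 1 to 3, and at 6 h PCS it was 43.2, 37.6 and 51.1 CPM. The groups overlapped, since 6 h replicate 3 lay above the 0 h replicates 2 and 3. The mean was 51.1 ± 3.2 CPM at 0 h against 44.0 ± 6.75 CPM at 6 h PCS. The log2 fold change of Egfr was −0.22 (SE 0.152, 95% interval −0.56 to 0.12, edgeR adjusted p 0.439), so the interval includes no change and ends well short of a 2-fold fall. When libraries were scaled on their size alone, the log2 fold change of Egfr was −0.54 (edgeR adjusted p 0.0444), within the fold limit and against a median of −0.32 for all tested genes under that scaling. The RefSeq annotation places Egfros and Gm39584 over parts of the Egfr locus, and since the strand setting of the counting is not stated, reads of such partners cannot be told apart from those of Egfr.

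Among the ligands, Hbegf (ENSMUSG00000024486, chromosome 18 from 36504927 to 36515805) encodes a ligand that also binds heparan sulfate on the cell surface. Its level was 144.0, 86.8 and 115.4 CPM in the 0 h libraries and 500.0, 580.2 and 570.9 CPM in the 6 h libraries. Every 6 h library was therefore above every 0 h library, and the lowest 6 h value was 3.47 times the highest 0 h value. That lowest value was in replicate 1, and the highest 6 h value was 1.16 times its level. Of the 6 h libraries, replicate 1 also had the lowest pigment cell and leukocyte markers, given further on, whose part was not tested. The mean rose from 115.4 ± 28.6 to 550.4 ± 43.9 CPM, a fold change of 4.77. In log2 units the change was 2.25 (SE 0.194, 95% interval 1.82 to 2.69, edgeR adjusted p 0.00024). Hbegf was a DEG in all 6 fits that left out 1 library (2.08 to 2.44 in log2 units) and in all 8 fits with another tool or setting, where the lowest value, 1.95, came from scaling on library size alone. The RefSeq gene Gm41698 overlaps the Hbegf locus.

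Tgfa (ENSMUSG00000029999, chromosome 6 from 86195038 to 86275744) encodes TGF-alpha, a ligand that binds the EGF receptor with high affinity. Its level was 7.78, 7.53 and 9.18 CPM at 0 h PCS and 5.90, 4.71 and 6.14 CPM at 6 h PCS. All 3 libraries at 6 h PCS lay below those at 0 h PCS, a position that 15.3% of all tested genes shared. The means were 8.16 ± 0.888 and 5.58 ± 0.761 CPM. The log2 fold change of Tgfa was −0.55 (SE 0.258, 95% interval −1.12 to 0.03, edgeR adjusted p 0.239), and it was not a DEG in any of the 14 other fits, in which it lay between −0.87 and −0.46. Tgfa thus had the opposite sign to Hbegf in every fit, but its own change did not pass the test.

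Ereg and Areg encode epiregulin and amphiregulin and lie next to each other on chromosome 5, Ereg (ENSMUSG00000029377) from 91074617 to 91093649 and Areg (ENSMUSG00000029378) from 91139599 to 91148432, with 45.95 kb and no other RefSeq gene between them. Ereg had 0, 4 and 16 counts in the 0 h libraries and 7, 73 and 55 counts in the 6 h libraries. The groups overlapped, because 6 h replicate 1 with 0.469 CPM was below 0 h replicate 3 with 0.689 CPM, while 6 h replicates 2 and 3 reached 3.28 and 3.31 CPM. The mean of Ereg was 0.278 ± 0.363 CPM at 0 h against 2.35 ± 1.63 CPM at 6 h PCS. Its log2 fold change was 3.07 (SE 1.15, 95% interval 0.50 to 5.64, edgeR adjusted p 0.142), so Ereg was not called although its estimate was the largest of the 5 tested genes. The call depended on the fit. Ereg was a DEG in 4 of 8 fits with another tool or setting, among them DESeq2 (adjusted p 0.0324), and in 0 of the 6 fits that left out 1 library, in which its edgeR adjusted p lay between 0.0702 and 0.300 and its log2 fold change between 2.50 and 4.84.

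Areg had 0, 0 and 2 counts at 0 h PCS and 0, 12 and 11 counts at 6 h PCS, and it did not pass the low-count filter. A count of 0 allows up to 3 counts, which in these libraries corresponds to 0.109 to 0.201 CPM. Summed over the libraries of a time point, Areg went from 2 to 23 counts, a ratio of 15.8 after TMM scaling (3.98 in log2 units) with an exact 95% binomial interval of 3.91 to 138. Ereg, summed in the same way, went from 20 to 135 counts, a ratio of 9.28 with an interval of 5.78 to 15.7. These intervals cover counting error only and leave out the spread between pools, in which 6 h replicate 1 had 0 counts of Areg and 7 of Ereg. Both genes had their highest 0 h count in 0 h replicate 3 and their lowest 6 h count in 6 h replicate 1. The summed markers of pigment cells and of leukocytes, given further on, were also lowest in 6 h replicate 1 among the 6 h libraries, as were the share of read pairs on genes and the TMM factor, and the part of these in the low counts was not tested. The RefSeq gene Gm19610 overlaps the Ereg locus, and its reads cannot be told apart from the few of Ereg. When no low-count filter was used, the log2 fold change of Areg was 3.58 (SE 2.04, edgeR adjusted p 0.360).

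Errfi1 (ENSMUSG00000028967, chromosome 4 from 150853796 to 150868889), also known as Mig-6, encodes the feedback inhibitor of the receptor. Its level was 40.5, 26.2 and 36.2 CPM at 0 h PCS and 84.4, 202.1 and 192.5 CPM at 6 h PCS. All 6 h libraries were above the 0 h libraries, the lowest by a factor of 2.09 over the highest 0 h value, but 6 h replicate 1 stood apart from the others, the highest of which was 2.40 times its level. As for Hbegf, Ereg and Areg, this is the 6 h library with the lowest pigment cell and leukocyte markers, share of read pairs on genes and TMM factor. Their part was not tested. The mean rose from 34.3 ± 7.33 to 159.7 ± 65.4 CPM. The log2 fold change of Errfi1 was 2.22 (SE 0.347, 95% interval 1.41 to 3.03, edgeR adjusted p 0.0100), a 4.66-fold increase. Without 6 h replicate 1 it was 2.52 (edgeR adjusted p 0.000175). Errfi1 was a DEG in all 6 fits that left out 1 library and in all 8 fits with another tool or setting, with a highest edgeR adjusted p of 0.0429 without 6 h replicate 3. The RefSeq gene 1700045H11Rik overlaps the Errfi1 locus.

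**Figure D2:**
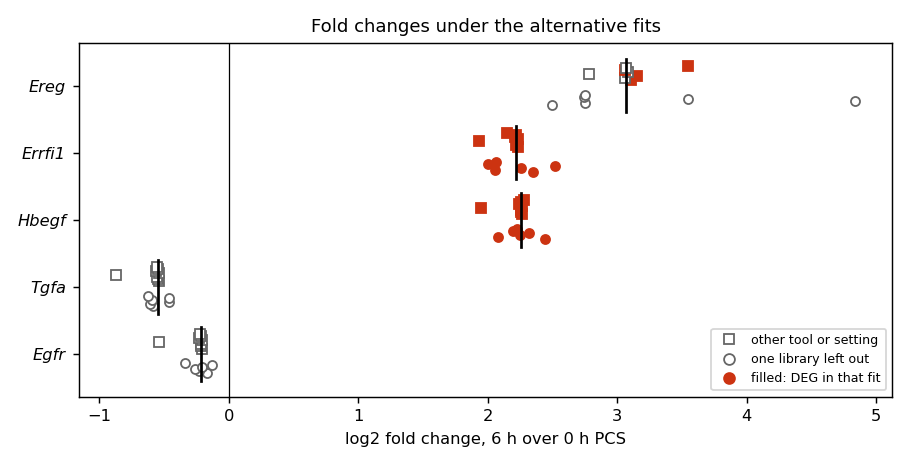
Log2 fold change of 6 h over 0 h PCS (horizontal axis) of the 5 tested genes in the fit given in the text (black bar), in 8 fits with another tool or setting (squares) and in 6 fits that each left out 1 library (circles), with filled symbols where the gene was a DEG. Hbegf and Errfi1 are filled throughout, Ereg in 4 squares and no circle, and Egfr and Tgfa stay left of 0 and unfilled.

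Levels of different genes can be compared only per length, and exon lengths were at hand for Hbegf and Errfi1 only. On the FPKM scale, with the total gene count of each library as the library size, Hbegf was at 26.6 ± 6.31 FPKM at 0 h and 102.7 ± 16.7 FPKM at 6 h PCS. Errfi1 was at 10.7 ± 2.24 and 40.8 ± 19.0 FPKM. The FPKM of Hbegf exceeded that of Errfi1 in all 6 libraries, by a factor of 2.36 to 2.64 at 0 h PCS. At 6 h PCS the factor was 4.39 in replicate 1, 2.13 in replicate 2 and 2.20 in replicate 3. The ligand gene was thus above the inhibitor gene at both time points, and within 6 h PCS the ratio was highest in the library with the lowest Errfi1, whereas at 0 h PCS it was highest, at 2.64, in the library with the highest Errfi1.

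The balance of ligand and inhibitor to receptor was also compared as a ratio of counts within each library, which no scaling of the libraries can change. There were 2.64, 1.72 and 2.39 Hbegf counts per Egfr count in the 0 h libraries and 11.6, 15.4 and 11.2 in the 6 h libraries. The mean ratio at 6 h PCS was 5.65 times that at 0 h PCS, and every 6 h library was above every 0 h library. For Errfi1 there were 0.742, 0.520 and 0.752 counts per Egfr count at 0 h PCS and 1.95, 5.37 and 3.77 at 6 h PCS, with a mean 5.51 times that at 0 h PCS. For Tgfa the ratio was 0.143, 0.149 and 0.190 at 0 h PCS and 0.136, 0.125 and 0.120 at 6 h PCS, with means of 0.161 ± 0.0258 and 0.127 ± 0.00833. The time points did not overlap, but by a narrow margin, since 0.143 and 0.136 in the replicates 1 rest on 181 and 88 Tgfa counts. The share of all genes whose ratio to Egfr did not overlap was not computed. Each of these 3 ratios had p = 0.1 in the exact two-sided permutation test on the log ratio, which is the smallest p that this test can give with 3 libraries against 3, so it cannot pass 0.05 whatever the size of the difference. The counts are not corrected for gene length, so the change of a ratio and not its height can be read.

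**Figure D3:**
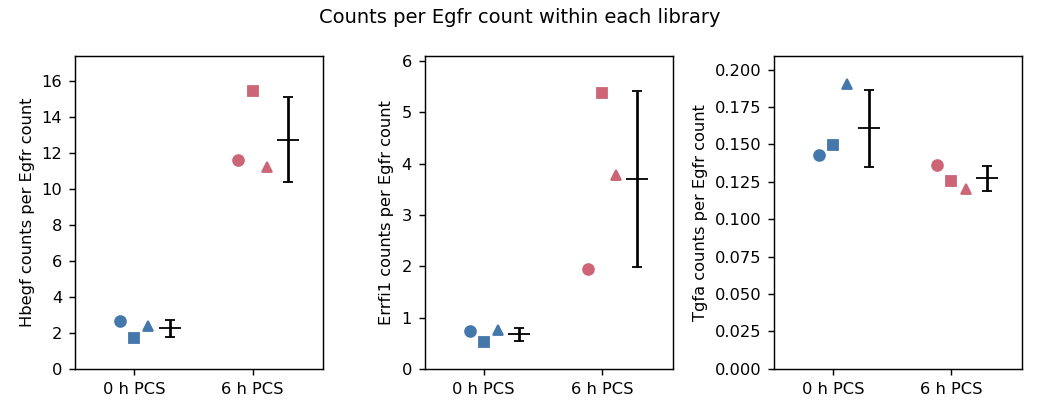
Counts of Hbegf, Errfi1 and Tgfa per Egfr count (vertical axes, linear from 0) in the 3 libraries at 0 h PCS (blue) and the 3 at 6 h PCS (red), with circle, square and triangle for replicates 1 to 3 and the mean and SD in black. The Hbegf ratio lies at or below 2.64 at 0 h PCS and at or above 11.2 at 6 h PCS, and the Tgfa ratio is lower in each 6 h library.

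The other genes of the pathway were taken from set lists, of which only part could be matched to a row, and the names at hand lean towards genes that changed. Among all tested genes with a symbol, 13.7% were DEGs, with a median log2 fold change of 0.19, against −0.0030 for all tested genes, and the lists are to be read beside these values. Of 7 other EGF-family ligands, 4 could be matched and tested, and 0 were DEGs in edgeR's quasi-likelihood test, in DESeq2 or in any of the other fits, while 1 of the 4, Btc, had an unadjusted p under 0.05. Nrg2 and Nrg1 encode neuregulins, which bind the sister receptors ErbB3 and ErbB4. Nrg2 was at 24.5 ± 0.800 and 19.7 ± 7.70 CPM, or −0.31 as log2 fold change (edgeR adjusted p 0.550). Nrg1 was at 11.0 ± 8.03 and 17.9 ± 3.62 CPM, or 0.71 as log2 fold change (edgeR adjusted p 0.463). Btc, the betacellulin gene, named here after its values were seen, was the only one of the 4 whose libraries did not overlap, with 1.32 ± 0.438 CPM at 0 h against 2.83 ± 0.813 CPM at 6 h PCS (edgeR adjusted p 0.209). Epgn, Egf and Nrg4 were not analysed here.

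Of the 3 sister receptors, Erbb4 and Erbb3 could be tested. Neither was a DEG in edgeR's test, DESeq2 or any of the other fits, and 0 of them had an unadjusted p under 0.05 in edgeR. Erbb4 was at 45.5 ± 8.79 CPM at 0 h against 48.5 ± 10.4 CPM at 6 h PCS, a log2 fold change of 0.09 (SE 0.199, edgeR adjusted p 0.823), which turned to −0.21 with library size scaling. Erbb3, which has little kinase activity of its own, was at 1.59 ± 1.39 and 2.17 ± 0.158 CPM, or 0.45 as log2 fold change (edgeR adjusted p 0.716). Egfr, Erbb3 and Erbb4 therefore all had 95% intervals that include no change. Erbb2 was not analysed here.

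Of 13 genes for the shedding and trafficking of ligands, 7 could be tested, and 2 of the 7 were DEGs, both upregulated, while the log2 fold changes of all 7 lay above 0, between 0.40 and 2.38 with a median of 0.93. The 2 DEGs encode not proteases but inhibitors of metalloproteases. Timp1 rose from 2.23 ± 0.352 to 11.6 ± 3.66 CPM, or 2.38 as log2 fold change (SE 0.318, edgeR adjusted p 0.00196). Timp3, whose product can inhibit ADAM17, the main sheddase of several of these ligands, rose from 542.7 ± 45.2 to 1341 ± 524 CPM, or 1.31 as log2 fold change (SE 0.265, edgeR adjusted p 0.0170). Timp1 was a DEG in all 15 fits, and Timp3 lost its call without replicate 1 or 3 of 0 h PCS or replicate 2 of 6 h PCS. In the 6 h libraries Timp3 was at 802.6, 1371 and 1850 CPM, the same order as that of the pigment cell markers given further on, whose part was not tested. Among the ADAM genes, Adam15, named after its values were seen, met the FDR limit only, with a log2 fold change of 0.93 (edgeR adjusted p 0.0453), and of the fits that left out a library, 1 of 6 called it (without 6 h replicate 1), against 0 of the 8 others. Adam12, named on the same basis, had a larger log2 fold change of 1.22 with no overlap between the time points and was not called (edgeR adjusted p 0.0824), but it was a DEG in 3 of the 8 fits with another tool or setting and in 0 of the 6 that left out a library. Adam10 and Adam17 were not analysed here.

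Of 22 genes for signalling close to the receptor, 6 could be tested, and 1, Stat3, was an upregulated DEG. Over the 6 genes the median was 0.11. Stat3, a transcription factor that receptor kinases and cytokine receptors activate, rose from 115.3 ± 16.3 to 276.1 ± 25.2 CPM, or 1.26 as log2 fold change (SE 0.151, edgeR adjusted p 0.00109), and with library size scaling it was at 0.94 and no longer past the fold limit. A pair of genes, named after their values were seen, passed the FDR limit alone. Grb2, the adaptor that links the receptor to Ras activation, rose by a log2 fold change of 0.82 (edgeR adjusted p 0.00933), and Plcg1, the phospholipase that docks on the receptor, fell by 0.54 (edgeR adjusted p 0.0299).

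Of 19 genes listed for attenuation of the receptor or its signal, 11 could be tested. Of the 11, 4 were DEGs, all upregulated, with a median log2 fold change of 0.76 over the 11 and values between −0.46 and 3.87. Cblb, a ubiquitin ligase that marks active receptors for degradation, rose from 26.5 ± 4.50 to 61.5 ± 14.1 CPM, or 1.22 as log2 fold change (SE 0.2, edgeR adjusted p 0.00574), or 0.89 and no DEG with library size scaling. Spry2 and Spry1 encode Sprouty inhibitors of signalling from receptor kinases to ERK. Spry2 rose from 24.1 ± 6.16 to 94.8 ± 14.2 CPM, or 1.97 as log2 fold change (SE 0.203, edgeR adjusted p 0.000494). Spry1 rose by a log2 fold change of 1.52 (edgeR adjusted p 0.0104), but was not a DEG without 0 h replicate 1. Spry4, another Sprouty gene, named after its values were seen, was not called (1.58, edgeR adjusted p 0.0533) but was a DEG in 5 of the 8 fits with another tool or setting and in 1 of the 6 that left out a library (without 0 h replicate 2). Zfp36, which had the highest value of the list, encodes an mRNA decay factor and is among the immediate early genes that the study names. It rose from 43.6 ± 23.5 to 637 ± 150 CPM, or 3.87 as log2 fold change (SE 0.483, edgeR adjusted p 0.00697). Lrig1, an inhibitor that, like Errfi1, acts on the receptor itself, was named after its values were seen, and it was at 152.2 ± 26.6 and 195.1 ± 9.33 CPM (edgeR adjusted p 0.194). The 2 genes of the list with a negative log2 fold change were not called. They were Cd2ap (−0.43, edgeR adjusted p 0.0714), lower in every 6 h library than in any 0 h library, and Lrig3 (−0.46, edgeR adjusted p 0.372). Over the 5 lists, 7 of the 30 tested genes were DEGs, all of them upregulated.

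**Figure D4:**
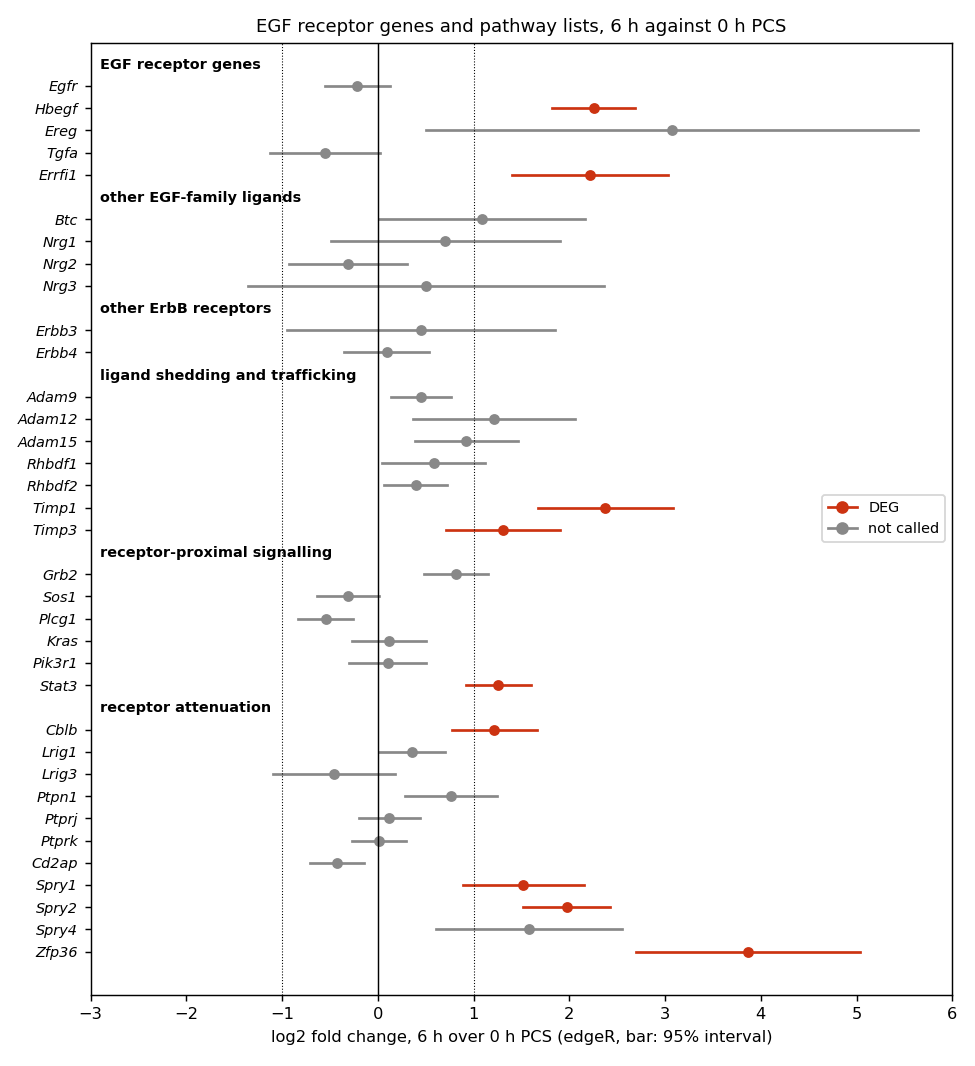
Log2 fold change of 6 h over 0 h PCS with its 95% interval from edgeR (horizontal axis) for the 5 tested EGF receptor genes and the 30 tested genes of the 5 pathway lists, in red where the gene was a DEG. Dotted lines mark a 2-fold change. All 9 DEGs lie to the right of 0, and Egfr, Erbb3 and Erbb4 are not among them.

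To see which genes had a course like that of each tested member, the root mean square difference between log2 CPM profiles, each centred on its own mean over the 6 libraries, was taken against the other 6367 tested genes with a symbol. The nearest profiles to Hbegf were Sfn, the gene of stratifin, at 0.113 log2 units, Mcm4, a subunit of the replicative helicase, at 0.151, and Srf, the serum response factor gene, at 0.160. Each of the 3 was an upregulated DEG, at 2.28, 2.00 and 2.35 in log2 fold change. The nearest to Errfi1 were Prdm1, a transcriptional repressor gene, at 0.182, Itga5, an integrin subunit gene, at 0.193, and Vasn, the gene of vasorin, at 0.194 log2 units, and these 3 were DEGs as well, at 2.33, 2.21 and 2.15. The neighbours of Tgfa, Setdb1 (0.0306), Wipi1 (0.0737) and Map3k1 (0.0768), and those of Egfr, Tmem170b (0.0577), Lpin1 (0.0697) and Zfp704 (0.0725), were not DEGs. Ereg had no profile as close, with H2-Q5 at 0.564, Plet1 at 0.632 and Oasl1 at 0.639 log2 units. Their log2 fold changes were 2.08, 3.61 and 1.65 against 3.07 for Ereg, and only Plet1 was a DEG. Ereg had 0, 4 and 16 counts at 0 h PCS, and the part of low counts in these distances was not tested. With 6 libraries in 2 groups, this measure takes in little beyond the fold change and the spread between libraries of a group, so it describes the course and nothing more.

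Markers of cells other than LECs were read beside these results. Of the corneal epithelial markers, Krt12 and Krt5 encode keratins of the ocular surface, and their summed level was 14.7, 0.764 and 3.75 CPM in the 0 h libraries and 87.1, 104 and 69.1 CPM in the 6 h libraries. It was higher in every 6 h library than in any 0 h library, as were Hbegf and Errfi1. At 0 h PCS the keratin sum, Hbegf and Errfi1 were each highest in replicate 1 and lowest in replicate 2. At 6 h PCS each was highest in replicate 2, but the keratin sum was lowest in replicate 3, and Hbegf and Errfi1 in replicate 1. That replicate had 0.469 CPM of Ereg and no count of Areg. The other matched corneal marker, Aldh3a1, had the opposite sign to the keratins, with 435.5 ± 77.2 and 279 ± 60.0 CPM and no overlap between the time points. The sum of all 3 corneal markers was 347.2 to 494.5 CPM at 0 h against 317.6 to 450 CPM at 6 h PCS. None of the 3 was a DEG. The summed level of 4 pigment cell markers of a list of 5, Dct the highest among them, was 51.3 to 208.6 CPM at 0 h PCS, and at 6 h PCS it was 77.3, 455 and 1962 CPM in replicates 1 to 3. The 6 h library with the lowest pigment markers was thus also the one with the lowest Hbegf, Ereg, Areg and Errfi1. At 0 h PCS, replicate 1 had the highest pigment markers and the highest Hbegf (144.0 CPM) and Errfi1 (40.5 CPM), but no count of Ereg or Areg. For 7 of 10 leukocyte markers the sum was 14.7 to 23.9 CPM at 0 h PCS, and in the 6 h libraries it was 23.3, 42.6 and 51.9 CPM, again lowest in replicate 1, with Cd68 and Cd14 as upregulated DEGs and Ptprc, which defines leukocytes, at 1.04 ± 1.02 and 2.53 ± 0.883 CPM. The difference in the sum lay mostly in Cd14 (0.982 to 14.7 CPM) and Cd68 (1.02 to 5.98 CPM), while Lyz2 (−0.16), Csf1r (−0.11) and Adgre1 (0.10 as log2 fold change) were not called. Endothelial markers (3 of 5) summed to 3.75 to 25.9 and 19.3 to 35.8 CPM, most of it Kdr, whose libraries overlapped. Pecam1 (0.790 and 3.13 CPM) and Cdh5 (0.218 and 2.24 CPM) were higher in every 6 h library than in any 0 h library, although neither was called (edgeR adjusted p 0.0644 and 0.0529). Stromal markers (4 of 6) summed to 291.6 to 329.6 and 212.8 to 316.6 CPM, and their members moved apart. Pdgfra fell by 0.73 on the log2 scale (edgeR adjusted p 0.0179) without reaching the fold limit, and Dcn, at −1.52 and lower in every 6 h library, was not called (edgeR adjusted p 0.161). Col1a1 was at 5.90 to 14.6 CPM in the 0 h libraries and at 3.96, 37.7 and 116.1 CPM in 6 h replicates 1 to 3. Among the 6 h libraries it was lowest in replicate 1, as were Hbegf, Ereg, Areg and Errfi1, and it was not called (edgeR adjusted p 0.308). Col1a2 was at 0.16 in log2 fold change and not called. No marker that could be matched was at 0 in all libraries. The part of these cells in the changes of Hbegf, Errfi1, Ereg and Areg was not tested.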

How the data were processed

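RNAseq counts of wild type LECs from 6 libraries were analysed, 3 per time point. Per the labels and the methods, the authors used Hisat2 to align read pairs to GRCm38, took counts over Ensembl genes by HTSeq (union mode), and deposited these counts without normalization. The strand setting of the counting is not given in the sources used here. The 5 HTSeq summary rows were left out, and gene counts were 33.6% of the read pairs in 6 h replicate 1 and 39.5% to 41.2% in the other files. PCR-amplified reads without molecular identifiers are not independent molecules.

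The counts were fitted with edgeR 4.0.16 (limma 3.58.1, R 4.3.3) over all genes as in the study's methods: filterByExpr by group, TMM, robust dispersions and the quasi-likelihood F-test in its earlier form, with Benjamini-Hochberg adjustment over 16810 genes. The standard error was the absolute log2 fold change over the square root of F. The script was tested on simulated data. Pools are separate samples by the labels, and p-values measure the spread between them. DESeq2 1.42.0 and the other settings of the closing section were alternatives. Profiles used log2 CPM with a prior count of 2.

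The genes and lists were chosen with earlier results of these data known, and the ratios to Egfr after the counts were seen. The text names the 6 genes, the DEGs of the pathway lists, the 2 most abundant genes of a list without DEGs, and the 3 nearest profiles of each tested gene. Symbols came from the parts of the supplementary tables that were read, which named 7020 genes and 6368 of those tested. The IDs of Areg, Ereg and Tgfa came with the choice of the genes. Coordinates are those of RefSeq on GRCm38.p6. Exon lengths were those of the study's supplementary tables. A comparison of all ligands per length was not run, because lengths of the other ligands were not at hand, nor were descriptions of promoters and proteins.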

Additional observations from a re-analysis of the deposited data

How the results depend on the processing

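Hbegf, Errfi1, Egfr and Tgfa kept their direction and their DEG call, or the lack of one, in all 14 alternative fits. Ereg kept its direction and became a DEG with DESeq2 (log2 fold change 3.10, adjusted p = 0.0324), with the quasi-likelihood form of edgeR 4 (3.15, adjusted p = 0.0492), with no low-count filter (3.06, adjusted p = 0.00444) and with a replicate block (3.55, adjusted p = 0.0324). The cause was not tested. Areg, at 3.98 on the log2 scale from summed counts, could not be fitted with the filter, was at 3.58 with no filter, and lay between 3.06 and 6.10 in the 4 fits without 1 library in which it passed, with no call. The number of DEGs among all genes lay between 553 (without 0 h replicate 1) and 877 when 1 library was left out, and between 897 and 1301 with the 8 other tools and settings, against 900. It was highest with DESeq2 and with no low-count filter (1301 each), and was 1050 with the replicate block. DEGs among shedding and trafficking genes numbered 1 to 3 with 1 library left out, and Stat3 was lost with library size scaling, which left 0 DEGs among signalling genes. The replicate numbers were not taken as pairs, since the labels tie no pools to each other by number and 1 of the 3 correlations was under 0.1. Deviations from the group means correlated at 0.00365, 0.223 and 0.139 for replicates 1, 2 and 3. Replicates 2 and 3 of 0 h PCS correlated best with their own number, and 0 h replicate 1 with 6 h replicate 3 (0.0228), so shared mice cannot be told from these numbers. Scaling FPKM on the TMM effective library size moved Hbegf and Errfi1 by less than 1 SD. Depth limits Areg and Ereg, with at most 16 counts in any 0 h library, so that absence at 0 h PCS cannot be read from these data. The share of each ligand in the summed ligand FPKM, and its alternative gene lengths, were not run.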
